A study of Mus musculus with 6 samples.

Results

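Heparan sulfate proteoglycans of the cell surface and the basement membrane were examined in mouse embryonic stem cells (mESCs) with and without huntingtin (Htt). The 10 genes were taken by symbol from the 23412 genes of the deposited table: the 4 syndecans Sdc1, Sdc2, Sdc3 and Sdc4, the 5 glypicans Gpc1, Gpc2, Gpc3, Gpc4 and Gpc6, and Hspg2, which encodes perlecan. All 10 passed the filter on low values (mean normalized count of at least 5) and are among the 14276 genes tested.

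RNA-seq was done on 2 undifferentiated mESC lines of strain 129Sv, with 3 libraries per line. R1 is the parental wild type line. HN is Htt-/-, nullizygous through deletion of the promoter and exon 1 of Htt. Both lines were grown without feeder cells on gelatin in serum medium with LIF and 3 inhibitors, SU5402 (FGF and VEGF receptors), PD184352 (MEK) and CHIR99021 (GSK3), so that an inhibitor of FGF receptors, for which heparan sulfate is a co-receptor, was present in both. RNA of R1 and HN was collected together on 3 dates, and libraries of the same replicate number share a date. Each genotype is represented by 1 line, so that the effect of the deletion and other differences between the lines cannot be told apart.

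A heparan sulfate proteoglycan is a core protein that carries long sulfated sugar chains, and the chains bind growth factors, morphogens and matrix proteins. Syndecans cross the membrane and have a short cytoplasmic tail, glypicans are held on the outer membrane leaflet by a glycosylphosphatidylinositol (GPI) anchor, and perlecan is secreted and built into basement membranes with laminins, nidogens and type IV collagen. In mESCs heparan sulfate is known for its part in FGF, BMP and Wnt signaling and in the exit from self-renewal.

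Reads on genes numbered from 1640391 to 3866717 per library, and Htt had 199 to 257 normalized counts in R1 against 18.3 to 58.1 in HN mESCs. The libraries of the third date stood apart from the rest in both lines. They had reads on 20542 to 20675 genes against 18133 to 19083 on the other dates, and a summed level of 8 primitive endoderm markers of 177 to 213 normalized counts against 46.1 to 80.3. The summed fibroblast and trophoblast markers were also highest on the third date in both lines. All 8 mESC markers were present in every library, with summed levels of 12428 to 17213 in R1 and 14502 to 19869 in HN, while the fibroblast marker S100a4 and the neural marker Fabp7 stayed under 5 everywhere. Summed levels of the markers of fibroblasts (37.7 to 105 in R1, 12.1 to 72.6 in HN), neural progenitors (273 to 318 and 174 to 272), primed epiblast (364 to 634 and 323 to 573) and trophoblast (151 to 251 and 158 to 249) overlapped between the lines across dates except for the neural list. Within dates, the summed fibroblast, neural and primed epiblast markers were lower in HN on all 3 dates and the mESC markers higher on all 3, while the primitive endoderm and trophoblast sums went both ways. With the collection date as a block, 5 of 8 mESC markers were higher and 1 (Zfp42) was lower at limma's adjusted p, beside 5.46% and 4.02% of all tested genes. The fibroblast marker Thy1, the neural marker Tubb3, the primed epiblast marker Otx2 and the trophoblast marker Tfap2c were also lower (1 each of 4, 6, 4 and 5 tested). Tfap2c went against its list, whose median log2 fold change was 0.35. The fibroblast, neural and primed epiblast lists had medians of -0.29, -0.30 and -0.26. The part of these differences in the results below was not tested.

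Of the proteoglycan core proteins, Sdc2 was the single one that passed the test between the lines in the comparison without a block. Hspg2 was higher in HN on each collection date. With the date as a block Hspg2 passed the adjusted p, as did 9.48% of all tested genes, but not the threshold on the change. The other 8 did not pass the adjusted p with either fit. By limma with Benjamini-Hochberg adjustment over all genes, 1 of the 10 was called (adjusted p under 0.05 with a change of more than 1 on the log2 scale). It was higher in HN, and 0 members were called lower. Of all tested genes, 0.245% were called, 0.119% higher and 0.126% lower. With the date as a block the count of members was again 1 higher and 0 lower, with 0.911% of all tested genes higher and 1.04% lower. At an unadjusted p under 0.05 without the block, 1 member passed, as did 5.91% of all tested genes. With the block 4 members passed it (Sdc2, Gpc3, Gpc6 and Hspg2), as did 3081 of all 14276 tested genes. Sdc2 is one of the genes that the study itself selected as changed in these libraries, so its call is not independent evidence. The study also reported higher Sdc2 RNA in HN by RT-qPCR on several batches of both lines.

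**Figure D1:**
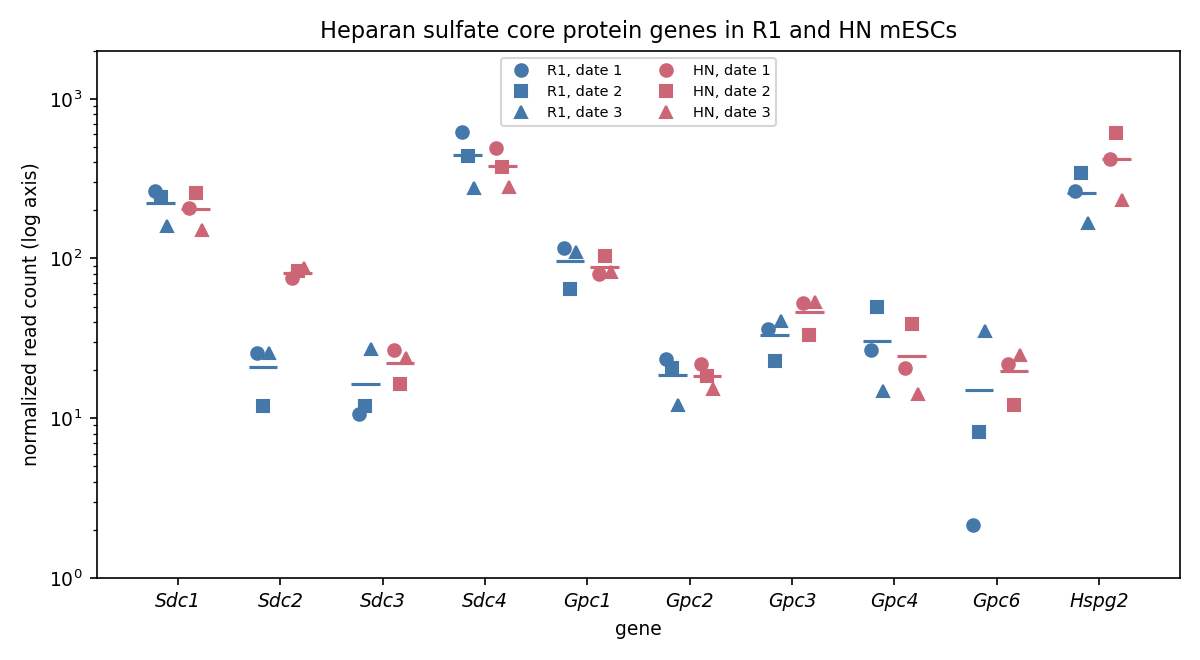
Normalized read counts (log axis) of the 10 heparan sulfate core protein genes in each R1 (blue) and HN (red) library, with symbols for the collection dates and bars at the means of 3 libraries. The HN points of Sdc2, from 75.4 to 86.6, all lie above its R1 points, from 11.8 to 25.6, while the points of the other 9 genes overlap between the lines.

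The syndecans are known to share sequence at the end of their coding region, where the tail enters the cytoplasm and ends in a motif bound by PDZ-domain proteins such as syntenin and CASK. The last 120 coding bases of each gene are shown because they cover this end, with the last 4 codons and the stop codon in capitals (GRCm38, sequences from GENCODE M21 transcripts, 5′ to 3′ on the strand of the gene). Whether the rest of the coding region is less alike was not tested. They lie within 1 exon each, at chr12:8791688-8791807 (plus strand) for Sdc1, chr15:33032421-33032540 (plus strand) for Sdc2, chr4:130822690-130822809 (plus strand) for Sdc3 and chr2:164426086-164426205 (minus strand) for Sdc4.
Sdc1: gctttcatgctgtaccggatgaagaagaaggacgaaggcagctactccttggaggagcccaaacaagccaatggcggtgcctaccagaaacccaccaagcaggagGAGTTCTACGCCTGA
Sdc2: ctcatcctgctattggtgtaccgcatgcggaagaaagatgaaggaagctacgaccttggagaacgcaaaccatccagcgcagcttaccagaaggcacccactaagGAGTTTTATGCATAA
Sdc3: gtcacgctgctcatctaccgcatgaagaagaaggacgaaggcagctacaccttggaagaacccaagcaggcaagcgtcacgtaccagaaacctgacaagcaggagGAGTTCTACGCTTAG
Sdc4: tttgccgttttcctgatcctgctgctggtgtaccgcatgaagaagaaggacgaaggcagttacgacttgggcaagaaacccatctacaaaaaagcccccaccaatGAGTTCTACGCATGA
Of the last 15 bases, Sdc2 had 11 in common with Sdc1, 11 with Sdc3 and 12 with Sdc4. Over whole coding regions the longest run of identical bases was 9 between Sdc2 and Sdc1, 9 between Sdc2 and Sdc3 and 14 between Sdc2 and Sdc4. The longest run between any pair was 29, between Sdc3 and Sdc4, so no coding run shared by syndecans reaches the length of a 50-base read. Outside the family, 1.98% of the 50-base stretches of Sdc2 transcripts are shared with the gene model Gm32618. For Sdc1, 0.78% are shared with Gm14724 or Gm16407.

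Sdc2, the syndecan typical of mesenchymal and neural cells, spans 114213 bp of chromosome 15 (chr15:32920723-33034935, plus strand). It had 25.5, 11.8 and 25.6 normalized counts in the R1 libraries (replicates 1, 2 and 3) against 75.4, 82.9 and 86.6 in the HN libraries, from 16 to 24 reads per R1 library and 62 to 117 reads per HN library. The lowest HN library was well above the highest R1 library. Lines that do not overlap in either direction were seen for 10.8% of all tested genes (5.23% with HN higher, 5.54% with HN lower), and Sdc2 was the single member among them. The means were 21.0 ± 7.93 in R1 and 81.7 ± 5.71 in HN (SD, n = 3), a ratio of 3.89.

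On the log2 scale after adding a pseudocount of 1, Sdc2 rose by 1.98 in HN (standard error 0.33, limma adjusted p = 0.0278), with a 95% interval from 1.27 to 2.70. With the collection date as a block the adjusted p was 1.23e-07 (limma) and the interval ran from 1.51 to 2.46. Within dates, the ratio of HN to R1 was 2.95 on the first date, 7.01 on the second and 3.38 on the third, and the high second ratio goes with the low R1 library of that date. The call without a block was lost when R1 replicate 1 (limma adjusted p = 0.0930), HN replicate 1 (0.224) or HN replicate 2 (0.0796) was left out, and without the third date (0.0799), while the log2 fold change stayed between 1.63 and 2.16. In bulk RNA, more cells that express Sdc2 and more Sdc2 RNA per cell cannot be told apart.

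**Figure D2:**
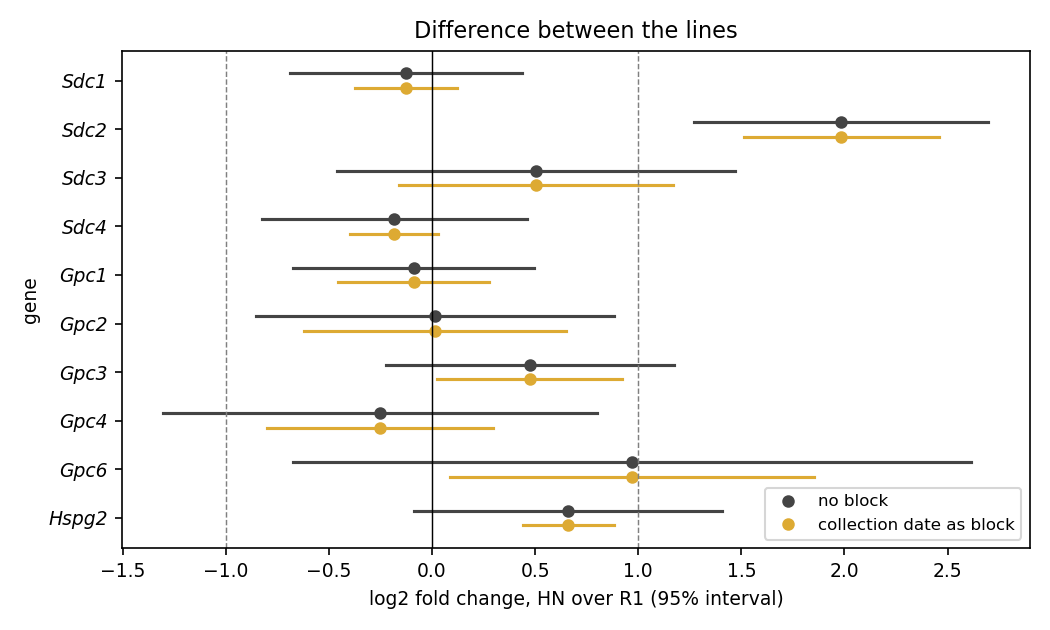
Log2 fold change of HN over R1 for each of the 10 genes with its 95% interval, from limma without a block (grey) and with the collection date as a block (gold), and dashed lines at the fold threshold. The intervals of Sdc2 lie above the threshold of 1 in both fits. Those of Hspg2 (0.44 to 0.88), Gpc6 (0.087 to 1.85) and Gpc3 (0.026 to 0.92) leave 0 only with the block. An interval leaves 0 where the unadjusted p is under 0.05, which with the block held for 3081 of all 14276 tested genes (limma).

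Sdc4, the widely expressed syndecan of focal adhesions, had the highest level per length of the 10 genes in both lines. It had 275 to 620 normalized counts in R1 and 281 to 489 in HN, and its highest and lowest libraries in each line were those of the first and the third date. Its log2 fold change was -0.18, with a 95% interval from -0.83 to 0.46 (limma). Sdc1, the syndecan of epithelia, had 160 to 266 in R1 and 151 to 256 in HN, with a log2 fold change of -0.13 and an interval from -0.69 to 0.43. Neither differed by more than the spread between replicates, and the sign of both turned when single libraries were left out.

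Sdc3, the syndecan best known from the nervous system, had 10.6, 11.8 and 27.0 normalized counts in R1 and 26.8, 16.3 and 23.8 in HN. The lines overlapped, since R1 replicate 3 was as high as the highest HN library, and HN was higher on the first 2 dates and lower on the third (ratios of 2.51, 1.38 and 0.884). With 10 to 23 reads per library its log2 fold change of 0.50 had a wide interval, from -0.46 to 1.47 (limma), which leaves a difference of the size seen for Sdc2 outside and a 2-fold difference inside. It moved between 0.27 (without R1 replicate 1) and 0.90 (without R1 replicate 3). A stretch of 7.73% of its exons is shared with overlapping gene models.

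Within the syndecan family, the make-up shifted toward Sdc2. Per kilobase of exons, Sdc2 made up 2.25%, 1.39% and 4.49% of the summed syndecan level in the R1 libraries and 7.87%, 9.79% and 13.8% in the HN libraries. These shares use the same counts as the test of Sdc2 and were not tested again. Sdc4 made up 71.3% ± 4.41 in R1 and 64.5% ± 5.32 in HN, and Sdc1 24.7% ± 2.57 and 23.3% ± 4.19 (SD, n = 3). The summed level was 242 ± 80.2 normalized counts per kilobase in R1 and 230 ± 47.6 in HN, so that the added Sdc2 was smaller than the spread of the sum between replicates.

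**Figure D3:**
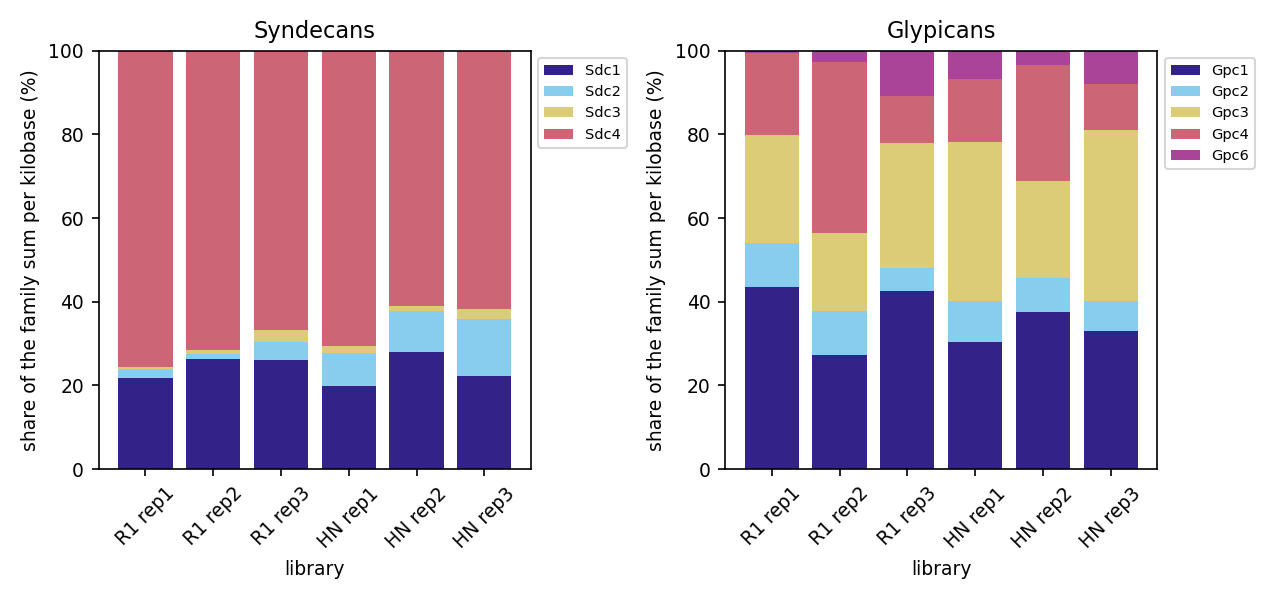
Share of each gene (percent) in the summed level per kilobase of exons of the syndecans (left) and the glypicans (right), as stacked bars for the 6 libraries. The Sdc2 share is 1.39 to 4.49% in R1 and 7.87 to 13.8% in HN, and the shares of Gpc4 and Gpc6 vary more between libraries of 1 line than between the lines.

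Among the glypicans, no gene was called. Gpc3, which binds Hedgehog and Wnt proteins and whose loss causes overgrowth, had 36.2, 22.9 and 40.4 normalized counts in R1 and 52.3, 33.3 and 53.1 in HN. HN was higher on every date, by ratios of 1.45, 1.45 and 1.31, while the lines overlapped across dates. Its log2 fold change of 0.47 did not pass either test (limma adjusted p = 0.99998 without and 0.199 with the date as a block), and the interval ran from -0.22 to 1.17 without and from 0.026 to 0.92 with the block. It was 0.24 without R1 replicate 2 and 0.69 without HN replicate 2.

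Gpc4, its neighbor on the X chromosome and a glypican of neural precursors and stem cells, went the other way. It had 26.6, 49.6 and 14.8 normalized counts in R1 and 20.7, 39.0 and 14.1 in HN, with ratios of 0.777, 0.787 and 0.9496 on the 3 dates. The dates differed much more than the lines. Its log2 fold change of -0.25 had an interval from -1.30 to 0.80 (limma) and its sign turned when R1 replicate 2 or HN replicate 3 was left out. In all, 3 members (Sdc2, Gpc3 and Hspg2) were higher in HN on all dates, as were 20.3% of all tested genes, and Gpc4 alone was lower on all dates, as were 21.1%.

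Gpc6, a glypican of growth plates and intestine that spans 1051230 bp of chromosome 14 (chr14:116925315-117976544, plus strand), had the widest range across dates. It had 2.13, 8.14 and 35.04 normalized counts in R1, from 2, 11 and 26 reads, and 21.9, 12.05 and 24.9 in HN, from 18, 17 and 23 reads. The lowest and the highest libraries both belong to R1. The ratio of HN to R1 was 10.3 on the first date, where the 2 R1 reads give a 95% counting interval from 2.46 to 91.4 (exact, counting error only), then 1.48 and 0.711. Over all libraries the log2 fold change was 0.97 with an interval from -0.67 to 2.61 (0.087 to 1.85 with the block), and the adjusted p was 0.99998 without and 0.179 with the block (limma). The log2 fold change fell to 0.12 without R1 replicate 1 and was 1.89 without R1 replicate 3, with no call in either case. With the third date left out and the date as a block it became 1.69 and was called (limma adjusted p = 0.0140), with 1 library per line and date behind it. The summed primitive endoderm markers were also highest on the third date in both lines (177 to 213 against 46.1 to 80.3). So were those of fibroblasts (72.6 to 105 against 12.1 to 59.6) and trophoblast (249 to 251 against 151 to 193). The part of these markers in the Gpc6 values was not tested.

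Gpc1 and Gpc2 did not pass either test. Gpc1, the glypican with the highest mean level per length in R1 (in HN its mean was level with that of Gpc3), had 64.4 to 116 normalized counts in R1 and 80.3 to 103 in HN, with a log2 fold change of -0.09 and an interval from -0.67 to 0.49 (limma). Gpc2, known from developing neurons, had 12.1 to 23.4 in R1 and 15.2 to 21.9 in HN, with a log2 fold change of 0.02 and an interval from -0.85 to 0.88, and its sign was negative with edgeR and DESeq2. Exons of both overlap other gene models, Ankmy1 over 18.9% of those of Gpc1 and Gm43720 over 55.6% of those of Gpc2, so that part of their reads cannot be assigned with certainty. The summed glypican level per kilobase was 49.3 ± 3.12 in R1 and 51.0 ± 2.47 in HN (SD, n = 3). Gpc5, the glypican that lies next to Gpc6 and was not among the 10, had 2.13 to 16.2 normalized counts in R1 and 2.13 to 19.5 in HN, from 2 to 18 reads per library.

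Hspg2 (chr4:137468769-137570630, plus strand) had 265, 343 and 166 normalized counts in R1 and 420, 609 and 234 in HN. Replicate 3 was the lowest and replicate 2 the highest library in both lines, and the lines overlapped because HN replicate 3 lay under R1 replicates 1 and 2. Within dates HN was always higher, by ratios of 1.58 (95% counting interval 1.34 to 1.87), 1.77 (1.58 to 1.99) and 1.41 (1.13 to 1.78). The means were 258 ± 88.9 in R1 and 421 ± 187 in HN (SD, n = 3).

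The log2 fold change of Hspg2 was 0.66 (standard error 0.34, limma adjusted p = 0.965), with an interval from -0.09 to 1.41. It was 0.34 without HN replicate 2, 0.37 without R1 replicate 3 and 1.03 without HN replicate 3. With the collection date as a block the adjusted p became 5.42e-05 (limma) and the interval 0.44 to 0.88, which is a fold of 1.36 to 1.84. It thus passed the adjusted p alone but not the fold threshold. With the block, 2 of the 10 members (Sdc2 and Hspg2) passed the adjusted p alone, as did 9.48% of all tested genes, 5.46% higher and 4.02% lower. Without the third date the log2 fold change was 0.74, with an adjusted p of 0.461 without and 1.74e-08 with the block (limma).

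Per kilobase of exons, the order of the levels was Sdc4, Sdc1, Gpc1, Hspg2, Gpc3, Gpc4, Sdc2, Gpc2, Sdc3 and Gpc6 in R1. Levels ran from 175 ± 67.7 normalized counts per kilobase for Sdc4 and 58.5 ± 14.5 for Sdc1 to 2.35 ± 2.73 for Gpc6 (SD, n = 3). Only Sdc4 and Sdc1, and Sdc1 and Gpc1, did not overlap with their next neighbor in that order. In HN the order was Sdc4, Sdc1, Hspg2, Sdc2, Gpc1, Gpc3, Gpc4, Gpc2, Sdc3 and Gpc6. Sdc2 thus moved from rank 7 (5.95 ± 2.25 per kilobase) to rank 4 (23.2 ± 1.62), where all its libraries were above those of Gpc1 (17.2 ± 2.49) and overlapped with those of Hspg2 (29.4 ± 13.1). The ranks of Gpc2, Sdc3 and Gpc6 depend on whether all exons or the longest transcript are taken as the length.

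For several members the range across dates was larger than the difference between the lines. These measures are unlike, since a range of 3 means tends to be wider than a difference of 2 means. The range of the 3 date means on the log2 scale had a median of 0.773 over the members and 0.610 over all tested genes. It was 1.85 for Gpc6, 1.54 for Gpc4 and 1.21 for Hspg2, and 0.239 for Gpc1. Of the members, 5 (Sdc1, Sdc4, Gpc2, Gpc4 and Hspg2) had their lowest library on the third date in both lines, and 3 (Sdc2, Gpc3 and Gpc6) their highest. The share over all tested genes was not counted. Since the third-date libraries stood apart in both lines, these counts cannot be read as a trait of the members. Sdc2 had a range of 0.557 across dates, under its difference between the lines. In R1 its value on the third date (25.6) was level with that on the first (25.5).

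The other genes of the pathway were followed in 11 lists with 157 genes, of which 142 were tested. Without a block, 0 of the 142 were called by limma, with 12 (8.45%) at an unadjusted p under 0.05 against 5.91% of all tested genes, 0 called by edgeR and 1 (Lama1) by DESeq2. With the collection date as a block, limma called Lama1 higher and Col4a1 lower, edgeR also called Fgf17 higher, DESeq2 called Lama1 alone, and 15 genes higher and 4 lower passed limma's adjusted p alone. These 19 are 13.4% of the 142, where 9.48% of all tested genes passed (5.46% higher, 4.02% lower), and the counts per list given next are to be read against these shares, with lists of 5 to 25 tested genes. The median log2 fold change was 0.12 over these lists, 0.25 over the 10 members and -0.01 over all tested genes.

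**Figure D4:**
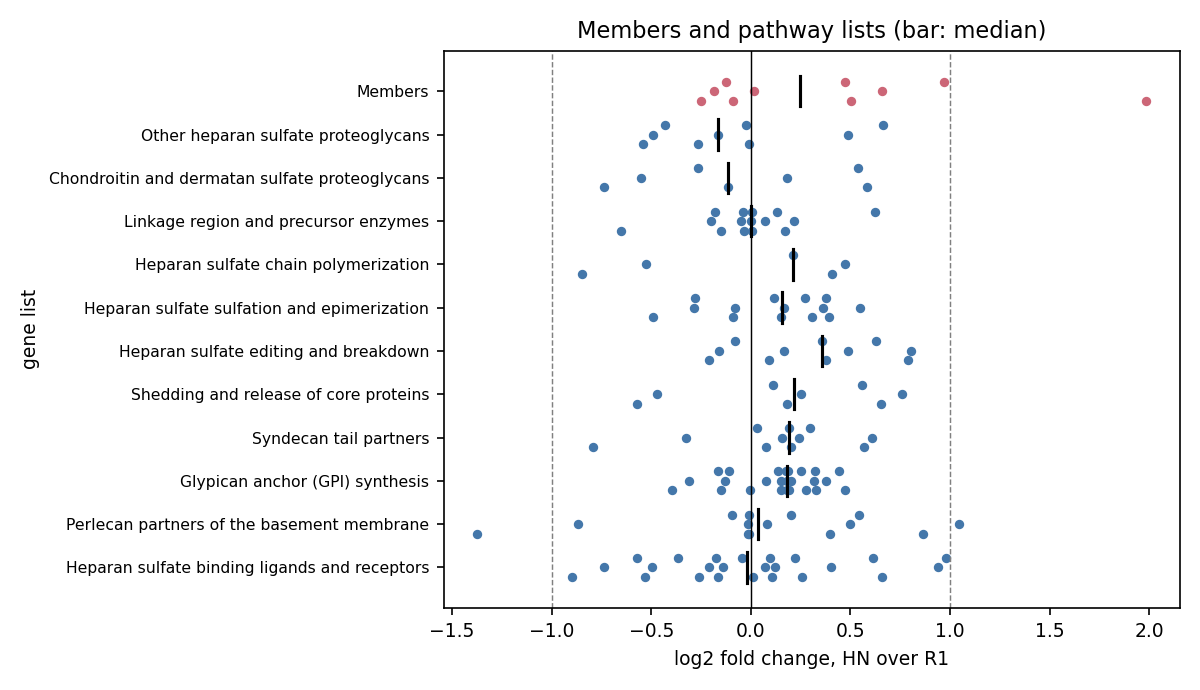
Log2 fold change (HN over R1) of the 10 members (red) and of the tested genes in each of the 11 pathway lists (blue), with a bar at each median and dashed lines at a fold change of 2. Sdc2 lies farthest to the right, and the list of perlecan partners holds both the highest and the lowest value of the 11 lists, Lama1 at 1.04 and Col4a1 at -1.37.

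The basement membrane partners of perlecan were the list with most genes past the adjusted p. With the block, 5 of 14 tested genes were higher and 2 were lower by limma, beside 5.46% and 4.02% of all tested genes. Lama1, the laminin alpha chain of the early embryo, had 295, 250 and 244 normalized counts in R1 and 646, 515 and 477 in HN. The lines did not overlap, and the log2 fold change was 1.04 (standard error 0.19, limma adjusted p = 0.0612 without and 3.17e-09 with the block). Lama1 is among the genes that the study itself lists as higher in HN, so its call is not independent evidence. Lamc1, the gamma chain of the same trimer, had 583 ± 27.5 in R1 and 1068 ± 165 in HN (SD, n = 3), a log2 fold change of 0.86 (limma adjusted p = 0.134 without and 2.26e-08 with the block). Lamb1, the beta chain, had 73.1 ± 6.93 and 86.6 ± 26.7 and did not pass either test.

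Fn1 (fibronectin), Lama5 and Nid2 (nidogen 2) were the other genes of this list that were higher with the block, with log2 fold changes of 0.54, 0.50 and 0.40 and limma adjusted p of 2.86e-05, 0.00219 and 0.00847. The chains of type IV collagen went the opposite way. Col4a1 had 184, 127 and 104 normalized counts in R1 and 37.7, 39.7 and 89.9 in HN, with lines that did not overlap but an HN replicate 3 close to the lowest R1 library. Its log2 fold change was -1.37 (limma adjusted p = 0.273 without and 2.81e-05 with the block), and that of Col4a2 was -0.87 (0.768 and 0.0146). Nid1, Agrn and Dag1, which encode nidogen 1, agrin and dystroglycan, had log2 fold changes of -0.01, -0.01 and 0.08. The summed markers of primitive endoderm, a lineage known to secrete laminin and type IV collagen, were 54.3, 51.8 and 213 normalized counts in R1 and 80.3, 46.1 and 177 in HN, and their part in these differences was not tested.

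**Figure D5:**
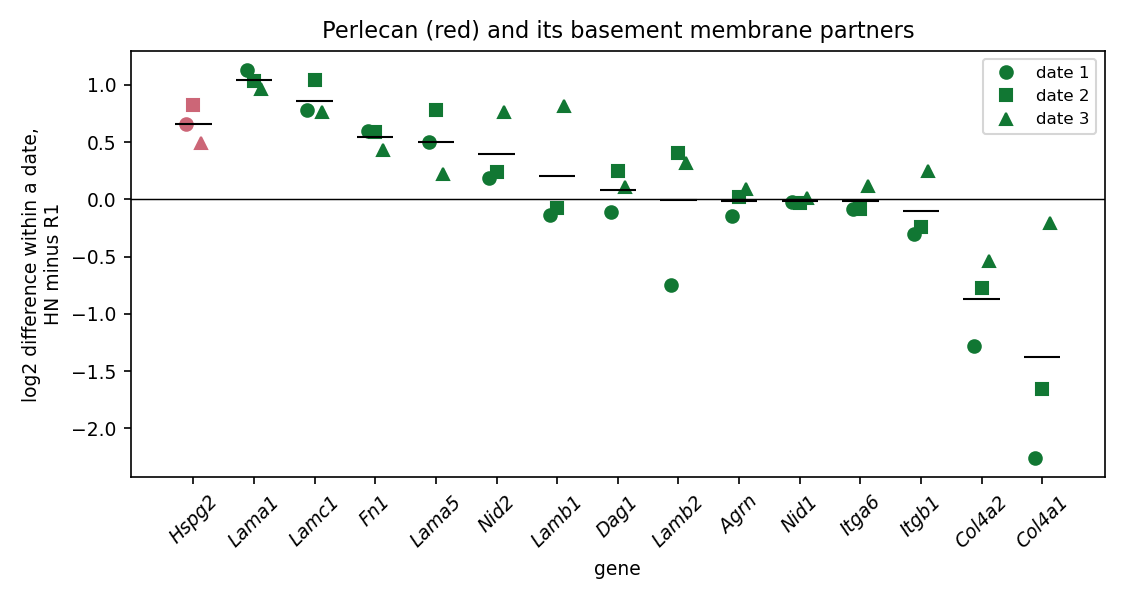
Log2 difference between HN and R1 within each collection date (symbols) for perlecan (Hspg2, red) and 14 basement membrane genes (green), with bars at the means. Hspg2, Lama1, Lamc1, Fn1, Lama5 and Nid2 lie above 0 on all 3 dates, and Col4a1 and Col4a2 below 0 on all 3.

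Among 9 tested other heparan sulfate proteoglycans, 0 passed the adjusted p by limma with or without the block, and 0 had an unadjusted p under 0.05 without it. Those with the smallest p were Spock2 (testican 2), the betaglycan gene Tgfbr3 and Col18a1 (type XVIII collagen), with log2 fold changes of -0.43, 0.49 and -0.26. Of 7 tested chondroitin and dermatan sulfate proteoglycans, 1 was higher with the block. This was Vcan (versican), with 109 ± 9.73 normalized counts in R1 and 167 ± 40.9 in HN (SD, n = 3) and a limma adjusted p of 0.00399 with the block. Ncan and Cspg5, proteoglycans of the nervous system, had log2 fold changes of -0.74 and -0.55 and did not pass.

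Of the enzymes that make the chains, 1 passed the adjusted p with the block. Of 15 tested genes for the linkage region and the sugar and sulfate precursors, 0 passed with the block (limma, 1 at an unadjusted p under 0.05 without it), and the 3 with the smallest p were the nucleotide sugar transporter Slc35d2 (log2 fold change -0.65), Ugp2 (0.22) and the sulfate donor enzyme gene Papss2 (0.63). Of the 5 chain polymerization genes, Extl1 was lower with the block, at 38.6 ± 22.3 in R1 and 19.1 ± 3.98 in HN (limma adjusted p = 0.0435), while the copolymerase gene Ext2 had a log2 fold change of 0.47 and Extl2 one of -0.53. Of 14 tested genes for sulfation and epimerization, 0 passed with the block (limma, 0 at an unadjusted p under 0.05 without it), and Hs6st1, Glce and Hs3st3b1 had log2 fold changes of 0.36, -0.28 and -0.49.

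Of 11 tested genes for editing and breakdown of the chains, 2 were higher with the block. Sulf2, the extracellular sulfatase that trims 6-O-sulfate, had 177 ± 44.3 normalized counts in R1 and 246 ± 42.6 in HN (SD, n = 3, limma adjusted p = 0.00572 with the block), and Hgsnat, a lysosomal acetyltransferase, had a log2 fold change of 0.63 (0.0489). The lysosomal iduronidase gene Idua had one of 0.80 and did not pass. Of 8 tested genes for shedding and release, Notum, a Wnt-inactivating enzyme also described to cut glypican anchors, was higher with the block, at 94.5 ± 6.95 in R1 and 151 ± 25.9 in HN (limma adjusted p = 0.00222). The sheddase gene Adam10 (log2 fold change 0.56) and Furin (0.76) did not pass.

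Of 11 tested partners of the syndecan tail, 2 were higher with the block. Cask, a PDZ-domain scaffold that binds the tail end marked in capitals, had 96.7 ± 26.6 normalized counts in R1 and 150 ± 51.3 in HN (SD, n = 3, limma adjusted p = 0.00485 with the block). Pdcd6ip, the ALIX gene of the syntenin exosome route, had a log2 fold change of 0.57 (0.00308), and the syntenin gene Sdcbp itself one of 0.16, which did not pass. Prkca, the kinase that Sdc4 binds, had one of -0.79 and did not pass. Of 25 tested genes for synthesis of the GPI anchor, Pigl and Pign were higher with the block, by 0.47 and 0.44 on the log2 scale (limma adjusted p = 0.00710 and 0.0242), and Pgap1 had 0.32 and did not pass.

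Of 24 tested ligands and receptors that bind heparan sulfate, 2 were higher and 1 was lower with the block. Fgf4, the autocrine FGF of mESCs, had 599 ± 239 normalized counts in R1 and 875 ± 84.9 in HN (SD, n = 3, limma adjusted p = 0.000263 with the block). Fgf17 had 24.5 ± 4.32 and 52.1 ± 20.9 (0.00921). Vegfa was lower, at 124 ± 42.2 and 85.4 ± 26.8 (0.0201), and the hepatocyte growth factor receptor gene Met had a log2 fold change of -0.90 and did not pass.

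The position of the genes was examined for the 155 tested genes whose start lies within 1 Mb of a member's start. With the block, 4 of them (2.58%) were called by limma, where 1.95% of all tested genes were, namely Laptm5 near Sdc3 (log2 fold change 1.21), Hnf4a near Sdc4 (-2.94), D2hgdh near Gpc1 (1.86) and Tfr2 near Gpc2 (-1.35). Without the block their adjusted p lay between 0.0986 and 0.763, and none was called. The study itself lists Laptm5, Hnf4a and D2hgdh as changed in these libraries, so their calls are not independent evidence. Sdc2 had 2 tested neighbors, Sema5a (0.86) and Tspyl5 (0.10), and neither was called with or without the block. Hspg2 had 21 tested neighbors with a median log2 fold change of -0.06, and none of those called was among them.

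Over the 6 libraries, the genes whose log2 values followed Sdc2 most closely, of 10324 genes with a mean normalized count of at least 20, were Sh3bp4, Sh3bgrl2, Elf1, Diap3 and D2hgdh, with Pearson correlations of 0.990, 0.989, 0.985, 0.978 and 0.977. These are given as a description, since all genes share the same 6 libraries and any gene that differs between the lines correlates with Sdc2. Their log2 fold changes were 0.89, 0.44, 0.81, 0.57 and 1.86, against 1.98 for Sdc2.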

How the data were processed

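Total RNA of 2 mESC lines (R1, HN) was made into TruSeq libraries, with 3 libraries per line, and sequenced as paired-end reads. Per the labels and the study's methods, the authors converted base calls with bcl2fastq, used STAR for alignment (mm10, that is GRCm38), Picard for removal of PCR duplicates, HTSeq for counts on exons and DESeq2 for normalization. Versions and annotation are not given in the sources used here, nor is a strand setting. The deposited values are this normalized signal, a read count divided by the library's DESeq2 size factor. They were whole multiples of 1 read in 100% of values (tolerance 0.02 reads), and the recovered reads served for depth and count-based alternatives. Unused columns of per-sample values numbered 0.

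Values were compared as log2(normalized count + 1) with limma 3.58.1 (variance trend, R 4.3.3) over 14276 genes with a mean of at least 5. Genes were called at a Benjamini-Hochberg adjusted p under 0.05 with a log2 fold change above 1 in size. The main fit had no block, as the study's methods name none. Replicate numbers mark a shared collection date in the labels, and deviations of same-date libraries from their line means correlated by 0.25, 0.69 and 0.77, so the blocked value is printed wherever it changes a call. Intervals on ratios of reads cover counting error only. Nothing says that libraries of 1 line came from separately derived cultures beyond the dates, so p-values cover at most the spread between these libraries. Limma also draws its variances from a trend over all genes, with 11.7 degrees of freedom without and 34.0 with the block for 6 libraries. Its blocked p-values thus rest largely on that shared variance and less on the spread of the gene itself.

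Alternatives were that block, edgeR 4.0.16 and DESeq2 1.42.0 on recovered reads with and without it, pseudocounts of 0.1 and 10, other filters, median centring, quantile normalization, no variance trend and leaving out each library. Leaving out the third date, with and without the block, was added after seeing the data. Named were all 10 members, Htt, Gpc5, in each list the called genes or else the 3 with the smallest p, called neighbors within 1 Mb, and the 5 genes most correlated with Sdc2. Others were chosen after their values were seen: Lamc1, Fn1, Lama5, Nid2, Col4a2, Lamb1, Nid1, Agrn, Dag1, Vegfa, Sdcbp, Sema5a, Tspyl5, Tgds and the markers Zfp42, Thy1, Tubb3, Otx2 and Tfap2c. The members and lists were chosen with earlier results of these data known. Positions, lengths and sequences come from GENCODE M21 (GRCm38). The table has 27 lines with a date where the symbol should be, and these were not matched to any list.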

Additional observations from a re-analysis of the deposited data

How the results depend on the processing

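Sdc2 stayed higher in HN under all alternatives, with log2 fold changes of 1.60 to 2.12 (1.63 to 2.16 with 1 library left out) and adjusted p from 3.62e-13 to 0.283 over 20 alternatives. Its call was lost without the variance trend (limma, log2 fold change 1.98, adjusted p = 0.283) and without the third date (2.12, adjusted p = 0.0799). The cause was not tested. The members called higher therefore numbered 0 without the variance trend, where 1 member had an unadjusted p under 0.05 beside 767 of all 14276 tested genes. They numbered 0 to 1 with 1 library left out. Without the third date they numbered 0, with 3 members at an unadjusted p under 0.05 beside 1057 of all 14276 tested genes. They numbered 2 without the third date with the block, where Gpc6 joined. edgeR and DESeq2 each called 1. The block changed no other call of a member at both thresholds. Signs turned for members whose difference was near 0: Sdc1 (-0.35 to 0.075), Sdc4 (-0.49 to 0.093), Gpc1 (-0.36 to 0.062), Gpc2 (-0.25 to 0.19) and Gpc4 (-0.67 to 0.17) with 1 library left out, Gpc1 (0.076) and Gpc2 (-0.13) without the third date with and without the block, and Gpc2 with edgeR (-0.026 with and without the block) and DESeq2 (-0.037, and -0.0038 with the block).

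Genes of the pathway lists called higher numbered 1 with the block, DESeq2, DESeq2 with the block, no filter, median centring or quantile normalization (Lama1 in each), and 2 with edgeR and the block or without the third date and with the block. Those called lower numbered 1 with the block, with edgeR and the block, and without the third date, 0 to 1 with 1 library left out, and 3 without the third date and with the block. Over all tested genes, 17 were called higher and 18 lower. The replicate block gave 130 and 148, edgeR with the block 132 and 152, DESeq2 45 and 30, DESeq2 with the block 76 and 59, no variance trend 0 and 0 (767 at an unadjusted p under 0.05), and the third date left out with the block 189 and 197. Median centring gave 27 higher. Leaving out 1 library gave 3 to 30 higher and 4 to 26 lower. A mean of at least 50 removed Sdc3, Gpc2, Gpc3, Gpc4 and Gpc6, so this alternative has no value for them. With 1 library left out, Sdc3 ranged from 0.27 to 0.90, Gpc3 from 0.24 to 0.69, Gpc6 from 0.12 to 1.89 and Hspg2 from 0.34 to 1.03. Sdc2 in R1, Sdc3, Gpc2, Gpc4 and Gpc6 had fewer than 30 reads in at least 1 library, where counting error is largest.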

Other observations

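Tgds, a gene 135 kb beyond the end of Gpc6 ( chr14:118111911-118132755), was chosen after its values were seen. It encodes a sugar nucleotide dehydratase and had 12.8, 13.3 and 20.2 normalized counts in R1 and 38.9, 53.9 and 53.1 in HN, with lines that did not overlap. Its log2 fold change was 1.61 (limma adjusted p = 0.107 without and 4.31e-05 with the block). The study itself lists Tgds as higher in HN in these libraries, so this is not independent evidence. Gpc5, 400 kb on the other side of Gpc6, had a log2 fold change of 0.66 (limma adjusted p = 0.99998 without and 0.529 with the block).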
